A study of Mus musculus with 10 samples.

Results

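The genes described here are 10 enzymes and transport proteins of steroid and oxysterol metabolism that are transcribed in mouse brain: Srd5a1, Srd5a3, Hsd17b4, Hsd17b10, Hsd17b12, Hsd11b1, Cyp7b1, Cyp46a1, Star and Tspo. They were chosen by symbol, and all 10 were found among the 56884 gene rows of the count table. Bulk RNA-seq had been run on the hippocampus of 10 ovary-intact female P301S mice (the PS19 line), with 1 library per mouse. Every mouse, controls included, carries human mutant Tau driven by the mouse Prnp promoter, so no mouse without the transgene enters a comparison. In 5 mice SILASTIC tubing packed with 10 mm of DHT, an androgen that aromatase cannot convert into estrogen, was placed under the skin at 6 months of age. The other 5 received an empty (void) implant, and tissue was taken after 12 weeks, at 9 to 9.5 months. The comparison asks whether sustained DHT changed the hippocampal transcripts of the genes that make, activate or break down steroids.

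Steroids are made in the brain as well as taken up from blood. Synthesis starts when cholesterol is passed from the outer to the inner mitochondrial membrane and cut to pregnenolone. Star acts in that transfer from the outer membrane, where Tspo also resides. Reductases of the Srd5a family and hydroxysteroid dehydrogenases then set which steroid is active in a given cell. Neurons also dispose of cholesterol by hydroxylating it through Cyp46a1, and Cyp7b1 hydroxylates other oxysterols and neurosteroids. Several enzymes that carry a steroid name are better known for lipid or glycan work, among them Srd5a3, Hsd17b4 and Hsd17b12.

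Promoter sequence was at hand from RefSeq (GRCm38.p6) for 6 of the 10 genes, namely Srd5a1, Srd5a3, Hsd17b10, Hsd17b12, Hsd11b1 and Cyp46a1. The 250 bases before the gene start were searched on both strands for AGAACA, the core of androgen response elements, for AGGTCA, a core shared by many nuclear receptor sites, and for the GC box GGGCGG. The full palindromic androgen response element with a 3-base spacer and the direct repeat of AGGTCA with a 1-base spacer, which contain the shorter motifs, were searched too. Of the 6 promoters, 3 are shown because they span the extremes of GC box content and include the dehydrogenase whose transcript differed between the groups. GC boxes are in capitals, and each sequence reads 5′ to 3′ on the strand of the gene.
Hsd11b1, chr1:193242361-193242610, minus strand: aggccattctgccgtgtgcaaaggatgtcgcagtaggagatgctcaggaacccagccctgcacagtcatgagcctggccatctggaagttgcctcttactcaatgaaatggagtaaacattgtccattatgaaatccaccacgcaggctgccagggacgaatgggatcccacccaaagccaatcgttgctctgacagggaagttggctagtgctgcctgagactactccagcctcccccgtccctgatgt
Cyp46a1, chr12:108334066-108334315, plus strand: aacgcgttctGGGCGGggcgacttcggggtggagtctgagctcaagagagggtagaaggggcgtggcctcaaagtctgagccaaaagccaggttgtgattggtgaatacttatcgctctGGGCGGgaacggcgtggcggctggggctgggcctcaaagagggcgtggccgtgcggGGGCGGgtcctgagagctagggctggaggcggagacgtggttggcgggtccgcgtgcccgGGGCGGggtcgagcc
Srd5a1, chr13:69611464-69611713, minus strand: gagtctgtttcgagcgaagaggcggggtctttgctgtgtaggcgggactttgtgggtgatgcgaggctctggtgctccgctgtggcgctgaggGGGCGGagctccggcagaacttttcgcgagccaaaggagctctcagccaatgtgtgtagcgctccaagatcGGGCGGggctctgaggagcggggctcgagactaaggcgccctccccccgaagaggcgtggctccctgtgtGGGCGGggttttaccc

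The window of Cyp46a1 held 4 GC boxes and that of Srd5a1 held 3, whereas the Hsd11b1 window held 0. Srd5a3 had 2, and Hsd17b10 and Hsd17b12 had 1 each. Among 32851 promoter entries of the same length, 32.7% held a GC box. AGAACA was found in 16.1% of those entries and AGGTCA in 14%, but in none of the 6 windows of these genes. The full androgen element occurred in 0.00913% of all entries and the spaced direct repeat in 0.0335%, and neither occurred in the 6 windows. These matches describe letters in short windows only.

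Total counts per mouse lay between 27188854 and 47113661 with void and between 33523527 and 45947784 with DHT. Neuron markers were present in every library, with 12 genes such as Snap25 and Camk2a summing to between 9918 and 11948 CPM (counts scaled to the edgeR-normalized library size). Choroid plexus markers stood apart: 12 genes summed to 352 to 3187 CPM with void and to 3839 to 5511 with DHT, and void mouse 9 was the highest of its group. The S numbers in the sample titles were lower for all void mice than for all DHT mice. What they stand for is not given in the sources used here, and S number and treatment cannot be told apart.

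With DHT, 2 of the 10 genes, Tspo and Hsd11b1, were higher at an adjusted p under 0.05 (edgeR's quasi-likelihood test, Benjamini-Hochberg over all genes). Over all 17622 genes tested, 5.22% were called higher and 5.48% in either direction. No member was called lower, against 0.261% of all genes. For that direction the count was also 0 at an unadjusted p under 0.05, with edgeR and with DESeq2. With an added requirement of a log2 fold change above 1, only Tspo of the 10 genes passed, and 2.17% of all genes did. No member was lower by that rule, as 0.0227% of all genes were. At an unadjusted p under 0.05, 3 of the 10 genes passed (Tspo, Hsd11b1 and Hsd17b10), against 17.4% of all genes in either direction. A positive log2 fold change was found for 8 of the 10 genes and for 52.4% of all genes. The 10 genes had a median log2 fold change of 0.14, and the median over all genes tested was 0.0094. All 10 passed the filter on low counts, and the counts behind them ranged from 39 for Star to 4431 for Hsd17b12 in a single library.

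**Figure D1:**
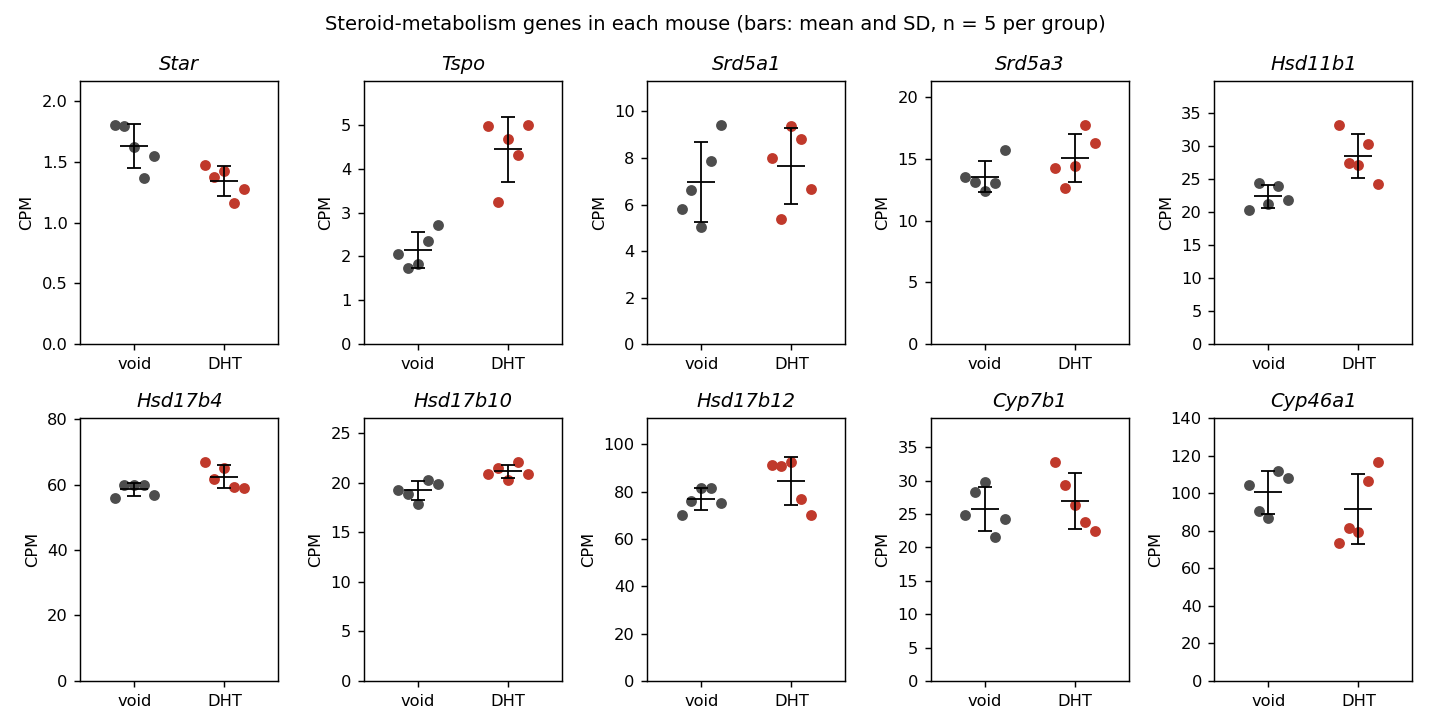
CPM of each of the 10 genes (vertical axes start at 0) in the 5 void (grey) and 5 DHT (red) mice, with 1 point per mouse and bars for the mean and SD. For Tspo the lowest DHT mouse, at 3.23 CPM, is above the highest void mouse, at 2.73, while the groups of most other genes overlap.

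Tspo, an outer mitochondrial membrane protein that binds cholesterol and is used as an imaging marker of glial activation, showed the clearest difference. Its level was 2.06, 1.74, 1.84, 2.36 and 2.73 CPM in void mice 10, 11, 4, 5 and 9. In DHT mice 1, 2, 3, 5 and 6 it was 4.97, 3.23, 4.69, 4.31 and 4.998 CPM. Thus every DHT mouse was above every void mouse, and DHT mouse 2 was the lowest of its group. The mean rose from 2.15 ± 0.405 to 4.44 ± 0.730 CPM (SD, n = 5 each). This gave a log2 fold change of 1.05 (standard error 0.16, 95% interval 0.69 to 1.41) and an adjusted p of 0.00761 from edgeR. That corresponds to a 2.07-fold higher level with DHT. These levels rest on 56 to 88 counts per library with void and 131 to 224 with DHT. With any single mouse removed, the estimate stayed between 0.96 and 1.15 and Tspo passed in all 10 fits. In the reference annotation, 53 exon bases of Tspo (5.04%) are shared with Mcat on the opposite strand, and whether strand was used in counting is not given in the sources used here.

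Microglial transcripts were also higher with DHT. Of 12 microglia markers, 7 were called higher, none was called lower by edgeR, and 12 had a positive log2 fold change. Over all genes tested, 5.22% were called higher, 0.261% were called lower and 52.4% had a positive log2 fold change. The 12 markers were all detected, and their summed level was 488 to 591 CPM with void and 712 to 1101 with DHT. Of 10 markers of disease-associated microglia, 9 were called higher, with sums of 593 to 673 CPM with void and 725 to 985 with DHT. Ctsb made up most of those sums (mean 446 CPM with void and 560 with DHT). The mean log2 CPM of the 10 was 1.65 higher with DHT, against 0.66 for the 12 microglia markers. Of the 10, the paper had already named Trem2, Tyrobp, Cst7 and Clec7a as induced in this RNA-seq. Both lists were chosen with earlier results of these data known, so their counts are a description. Gfap, the astrocyte filament gene, rose by 1.18 on the log2 scale (adjusted p = 0.00761, edgeR), though it was the only one of 10 astrocyte markers called, and those summed to 5991 to 8380 CPM with void and 6856 to 8644 with DHT. In bulk tissue, more cells of a type and more RNA per cell cannot be told apart.

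Set against the mean log2 CPM of the 12 microglia markers in the same mouse, Tspo lay at -3.72 ± 0.25 in void mice and -3.34 ± 0.19 in DHT mice (SD, n = 5 each). The difference of 0.37 had a two-sided exact permutation p of 0.0317, or 0.0635 after adjustment over 2 such contrasts, and 3 of 5 DHT mice were above all void mice. The marker mean itself was 0.66 higher with DHT and Tspo 1.03 higher on the same scale. Without void mouse 9 the difference was 0.46 (adjusted exact permutation p = 0.0159). This was the only 1 of 10 single-mouse removals that passed. In the others the adjusted exact permutation p lay between 0.0635 and 0.127. When the median of the markers replaced their mean, the difference was -0.014. That median is taken over levels, not over fold changes. By void group means it lies between C1qc and C1qb (27.5 and 31.2 CPM), whose log2 fold changes were 1.16 and 1.13. The median log2 fold change of the 12 markers was 0.55. This contrast thus depends on how the markers are summarised.

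**Figure D2:**
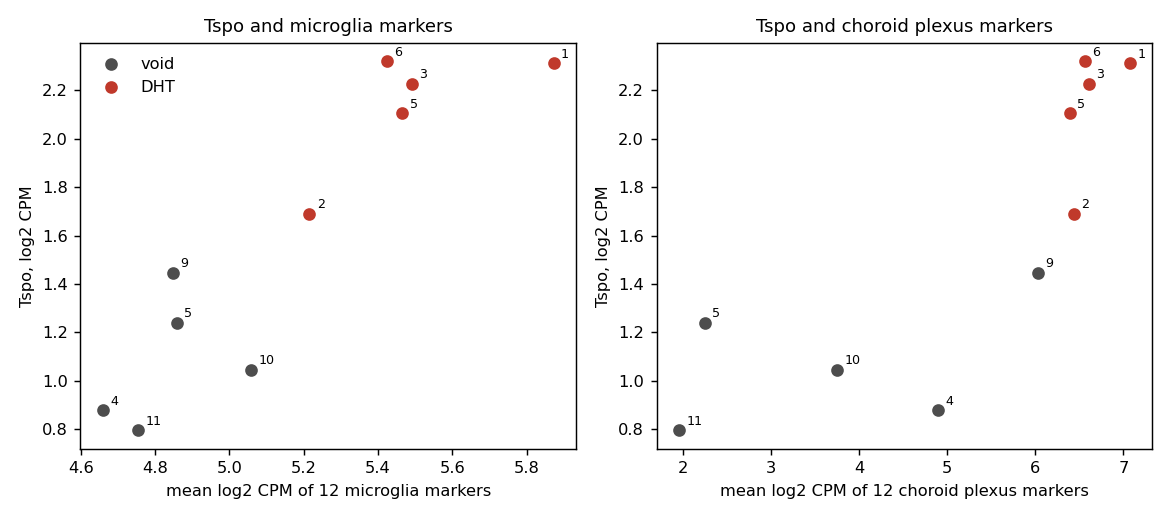
Tspo (log2 CPM, vertical axes) against the mean log2 CPM of 12 microglia markers (left) and 12 choroid plexus markers (right), with 1 point per mouse, labelled by mouse number and coloured by group. The 5 DHT mice lie above the void mice on the vertical axis and to their right in both panels, and void mouse 9 sits nearest to them in the right panel.

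All 12 choroid plexus markers were also positive, with 4 called higher, beside 5.22% of all genes called higher. Their mean log2 CPM did not overlap between groups (1.95 to 6.03 with void, 6.39 to 7.07 with DHT), so it can hardly be separated from treatment. With this mean as a covariate, the log2 fold change of Tspo was 0.82 (standard error 0.27). Its adjusted p became 0.580 in that fit, in which edgeR called 0 of all genes. An unadjusted p under 0.05 was found there for 1191 genes, or 6.76%, against 17.4% without the covariate. The unadjusted p of Tspo was 0.0105 there. The part of choroid plexus and of microglial content in the Tspo difference was not tested.

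Star, the protein that carries cholesterol into mitochondria of steroid-making cells, was the least abundant of the 10 and pointed the other way. Its level was 1.81, 1.80, 1.63, 1.37 and 1.55 CPM in void mice 10, 11, 4, 5 and 9, and 1.47, 1.38, 1.42, 1.17 and 1.28 CPM in DHT mice 1, 2, 3, 5 and 6. The groups overlapped only through void mouse 5, the lowest of the void mice. The log2 fold change was -0.27 (95% interval -0.58 to 0.028, adjusted p = 0.352, edgeR), on 39 to 77 counts per library. Ratios of DHT to void from 0.670 to 1.02 are inside that interval.

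Hsd11b1, the dehydrogenase that regenerates active corticosterone from its inert keto form inside cells, was the other gene called. It was at 20.3, 24.4, 21.3, 24.0 and 21.9 CPM in void mice 10, 11, 4, 5 and 9. DHT mice 1, 2, 3, 5 and 6 had 33.2, 27.5, 27.2, 30.3 and 24.3 CPM. Only DHT mouse 6 fell inside the void range, just under void mouse 11. Void mice averaged 22.4 ± 1.77 CPM and DHT mice 28.5 ± 3.39 (SD, n = 5 each). Its log2 fold change of 0.35 (standard error 0.090, 95% interval 0.15 to 0.54) amounts to 27.3% more transcript, with an adjusted p of 0.0423 from edgeR.

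That call lay close to the threshold. Leaving out DHT mouse 6 lowered the adjusted p of Hsd11b1 to 0.0246. Leaving out any other single mouse (void 10, 11, 4, 5 or 9, DHT 1, 2, 3 or 5) raised it above 0.05, to between 0.0551 and 0.183, with log2 fold changes of 0.25 to 0.37. The lowest of these fold changes came without DHT mouse 1. DESeq2 gave an adjusted p of 0.0228. With the choroid plexus covariate the log2 fold change was 0.45 (standard error 0.15), at an unadjusted p of 0.0111 and an adjusted p of 0.580 from edgeR. The part of choroid plexus content in the Hsd11b1 difference was not tested. Over the 10 mice, within groups, Ednrb, 5430414B19Rik and Glud1 had the highest Pearson correlation with Hsd11b1 (0.96, 0.94 and 0.92). For Tspo these were Bst2, Pfkfb4 and Acadvl (0.96, 0.96 and 0.95). All were picked as the highest among the tested genes outside the 10, so the values are given as a description.

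H6pd makes the NADPH that Hsd11b1 uses in the endoplasmic reticulum. It averaged 8.78 ± 1.08 CPM in void mice and 10.6 ± 1.22 in DHT mice (SD, n = 5 each). Here the log2 fold change of 0.28 had an adjusted p of 0.199 from edgeR. Hsd11b2, which runs the opposite reaction, had 0 or 1 count per library and was not tested.

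The 5α-reductases did not pass the test. Srd5a1, which makes DHT from testosterone and reduces progesterone on the way to allopregnanolone, was at 5.82, 6.64, 5.05, 7.89 and 9.42 CPM in void mice 10, 11, 4, 5 and 9, and at 7.998, 5.37, 9.37, 8.82 and 6.66 CPM in DHT mice 1, 2, 3, 5 and 6. Both groups covered nearly the same range. Its log2 fold change was 0.14 with an interval from -0.27 to 0.55 (adjusted p = 0.798, edgeR), so a level 17.3% lower and one 46.3% higher are both allowed. Of its exon bases in the reference annotation, 16.4% are shared with Gm17108 on the same strand.

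Srd5a3, whose main known role is the reduction of polyprenol to dolichol for protein glycosylation, ranged from 12.4 to 15.7 CPM with void (median mouse at 13.1) and from 12.7 to 17.8 with DHT (median mouse at 14.4). Its log2 fold change of 0.15 had an interval of -0.068 to 0.38 (adjusted p = 0.509, edgeR). Srd5a2, the reductase of the male reproductive tract, had between 0 and 6 counts per library and was not tested.

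None of the Hsd17b enzymes passed the adjusted test. Hsd17b10, a mitochondrial dehydrogenase of fatty acid, isoleucine and steroid metabolism, was at 19.2, 18.9, 17.9, 20.3 and 19.9 CPM in void mice 10, 11, 4, 5 and 9, and at 20.9, 21.5, 20.3, 22.2 and 20.9 in DHT mice 1, 2, 3, 5 and 6. The groups did not overlap, by the narrow gap between void mouse 5 at 20.27 and DHT mouse 3 at 20.31. Of the 10 genes, Tspo and Hsd17b10 were higher in every DHT mouse than in every void mouse, a pattern that 5.39% of all genes showed. None was lower in every DHT mouse, as 0.88% of all genes were. For Hsd17b10 the log2 fold change was 0.14 (interval 0.0067 to 0.27), with an unadjusted p of 0.0409 and an adjusted p of 0.260 from edgeR.

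Hsd17b4, the peroxisomal bifunctional enzyme that shortens very long chain fatty acids and oxidises estradiol, lay between 56.0 and 59.98 CPM with void and between 58.9 and 67.0 with DHT. Its interval was the narrowest of the 10, from -0.025 to 0.21 around a log2 fold change of 0.093 (adjusted p = 0.438, edgeR). A rise above 15.8% or a fall beyond 1.74% is thus outside the interval.

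Hsd17b12, a reductase of the fatty acid elongation cycle that also acts on estrone, split the DHT group. DHT mice 1, 2 and 3 had 91.2, 90.8 and 92.7 CPM, above all void mice (70.1 to 81.4), whereas DHT mice 5 and 6 had 77.0 and 70.2. Over all mice its log2 fold change was 0.14 (interval -0.046 to 0.32, adjusted p = 0.468, edgeR).

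Cyp46a1, the neuronal enzyme that converts cholesterol to 24S-hydroxycholesterol for export from the brain, also split the DHT group, in the opposite direction. Void mice 10, 11, 4, 5 and 9 had 104.7, 90.6, 86.7, 112 and 108 CPM, and DHT mice 1, 2, 3, 5 and 6 had 73.6, 81.7, 79.6, 107 and 117. DHT mice 1, 2 and 3 were thus below all void mice, and DHT mice 5 and 6 were among the highest values. The log2 fold change was -0.13 (interval -0.41 to 0.15, adjusted p = 0.688, edgeR).

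Neuron markers moved little: 0 of 12 were called in either direction by edgeR, and 11 had a negative log2 fold change. Against the mean of these markers in the same mouse, the Cyp46a1 difference between groups was a log2 value of -0.038 (exact permutation, two-sided, p = 0.817, also after adjustment over 2 contrasts), with 2 of 5 DHT mice above and 2 of 5 below all void mice. Across mice within groups the Pearson correlation of Cyp46a1 with that marker mean was 0.83, a value given as a description.

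Cyp7b1, the oxysterol and neurosteroid hydroxylase, was at 24.8, 28.3, 29.8, 21.5 and 24.2 CPM in void mice 10, 11, 4, 5 and 9. In DHT mice 1, 2, 3, 5 and 6 it was at 32.8, 29.3, 26.3, 23.8 and 22.5. The groups overlapped widely. A log2 fold change of 0.067 was estimated (interval -0.19 to 0.32, adjusted p = 0.853, edgeR), and the sign turned without DHT mouse 1, to -0.048.

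**Figure D3:**
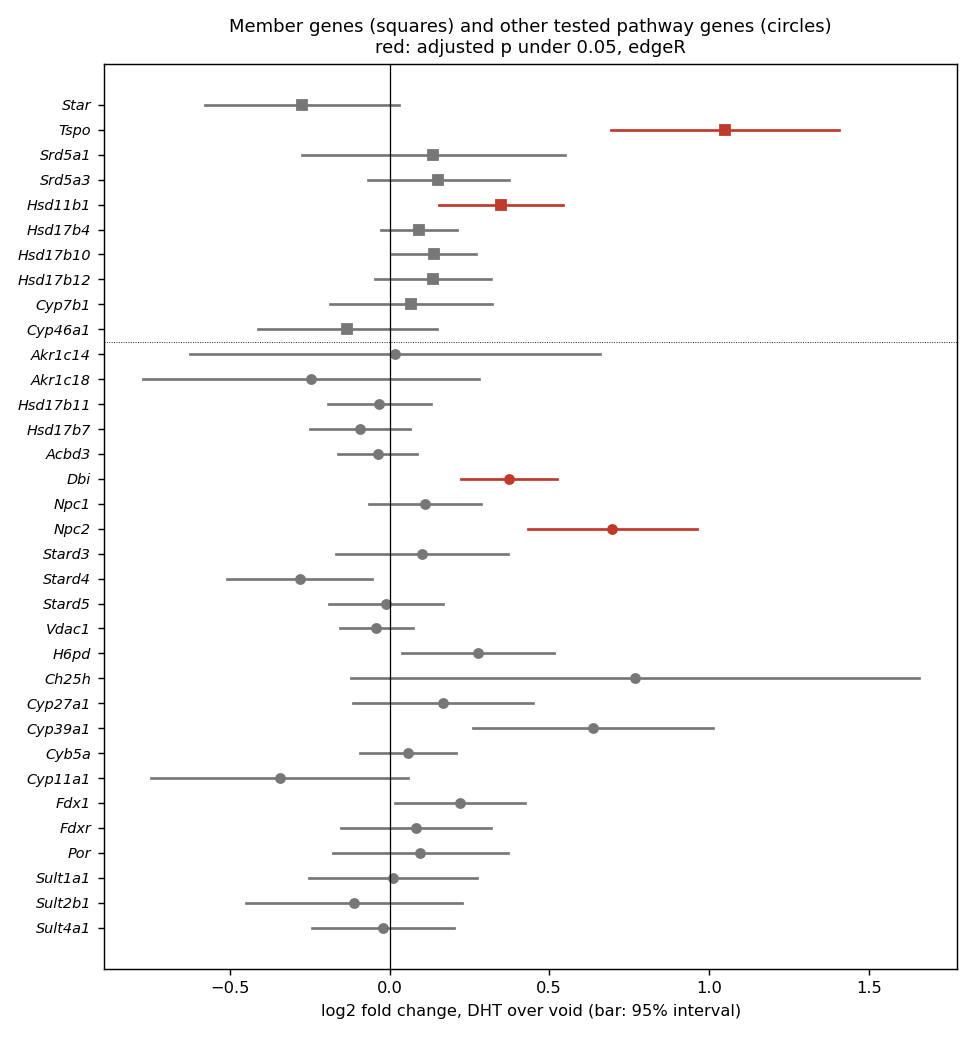
Log2 fold change of DHT over void (horizontal axis) with 95% intervals for the 10 member genes (squares) and 24 other tested genes of steroid and oxysterol handling (circles). Tspo, Hsd11b1, Dbi and Npc2, in red, had an adjusted p under 0.05.

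Although neither cytochrome P450 passed the test between groups, the 2 moved in opposite directions from mouse to mouse. After subtracting group means from log2 CPM, Cyp7b1 and Cyp46a1 had a Pearson r of -0.92 over 10 mice (exact permutation within groups, p = 0.000556, adjusted p = 0.025 over 45 pairs of members). Spearman's rho was -0.94 (exact permutation p = 0.000208, adjusted p = 0.00937). Without the mice farthest from the median of Cyp7b1, DHT mouse 1 and void mouse 4, r was -0.87. Taken by group, r was -0.97 in void mice and -0.91 in DHT mice. These are the same mice that gave the pooled value, so the split is a description and not a separate check.

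It was the only one of the 45 pairs with an adjusted Pearson p under 0.05. The share of such pairs among all genes was not computed, so nothing particular to these genes is read from that count. The next pair, Hsd17b4 with Hsd17b12, had r = 0.84 and rho = 0.85 (exact permutation p = 0.0127 and 0.0119), with adjusted p values of 0.212 and 0.214. The neuron marker mean correlated at -0.67 with Cyp7b1 within groups, opposite in sign to Cyp46a1. It was -0.82 for Hsd17b4 and -0.76 for Hsd17b12. The part of neuronal RNA content in these relations was not tested.

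**Figure D4:**
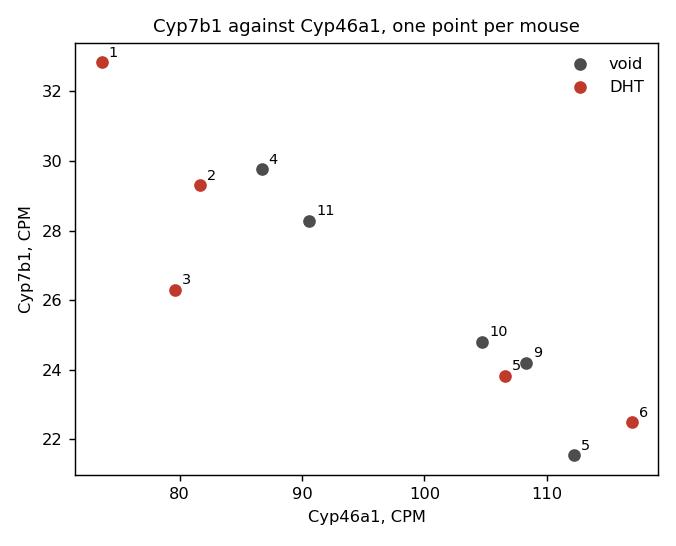
Cyp7b1 against Cyp46a1 (both in CPM), with 1 point per mouse, labelled by mouse number and coloured by group. Mice with more Cyp46a1 had less Cyp7b1 in both groups, and DHT mouse 6 (117 and 22.5 CPM) and DHT mouse 1 (73.6 and 32.8 CPM) had the most and the least Cyp46a1.

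Levels can be set against each other only per length. Length here is all annotated exon bases of a gene over its transcripts, so the order also depends on the annotation. In CPM per kb of exon over the 10 mice, Hsd17b12 stood highest at 33.5 ± 3.52 (SD), followed by Cyp46a1 at 29.2 ± 4.68, and these overlapped in range. Hsd17b4 came next at 17.8 ± 0.997, then Hsd17b10 at 15.6 ± 0.985 and Cyp7b1 at 12.2 ± 1.67, each overlapping its neighbour. Hsd11b1, at 5.99 ± 0.968, was apart from the genes on either side. Tspo (3.13 ± 1.27), Srd5a3 (3.08 ± 0.378) and Srd5a1 (2.51 ± 0.558) overlapped, and Star was lowest at 0.362 ± 0.0510. By group, Tspo went from 2.04 CPM per kb with void, below the 2.39 of Srd5a1, to 4.22 with DHT, above the 3.25 of Srd5a3.

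**Figure D5:**
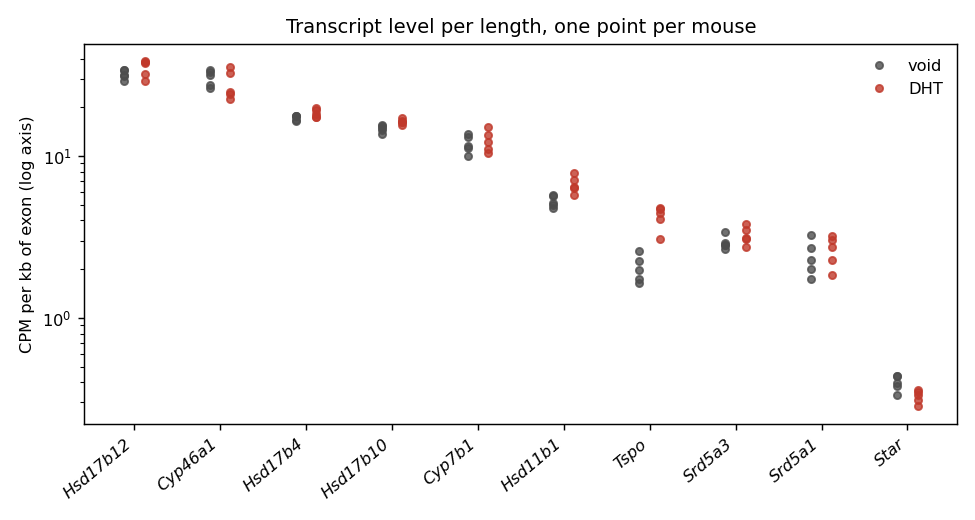
CPM per kb of exon (log axis) of the 10 genes in decreasing order, with 1 point per mouse (grey void, red DHT). Star lies below all other genes in every mouse, and Tspo has the largest gap between the groups.

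Of 50 other genes of steroid and oxysterol handling, 48 were found by symbol and 24 had enough counts to be tested. Of these 24, 2 were called higher and 22 were not called, beside 5.22% of all genes called higher. With DESeq2, 3 of the 24 and 1186 of all 17622 genes were called higher. The counts over the 24 genes are a description, and nothing particular to the list is read from them. None was called lower by edgeR or DESeq2, although Stard4 had an unadjusted p under 0.05. The median log2 fold change of the 24 was 0.039, near that of all genes. Of the other 24, Hsd3b1, Hsd3b6 and Hsd17b6 had no count in any library, which allows at most 0.0628 to 0.111 CPM per library (3 counts, counting error only).

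In the cholesterol delivery list all 8 genes were tested, and the 2 called were Dbi and Npc2. Dbi, the acyl-CoA-binding protein whose peptides bind Tspo, averaged 86.8 ± 5.97 CPM in void mice and 112 ± 9.24 in DHT mice (SD, n = 5 each). Every DHT mouse was above every void mouse, at 103 CPM or more against 92.8 or less. This was a log2 fold change of 0.37 (interval 0.22 to 0.53, adjusted p = 0.0115, edgeR). Without void mouse 11 its adjusted p was 0.0529.

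Npc2, which hands cholesterol out of the lysosome, went from 47.3 ± 7.48 to 76.7 ± 11.3 CPM (SD, n = 5 each), again without overlap. The fit gave a log2 fold change of 0.70 (interval 0.43 to 0.96, adjusted p = 0.00990, edgeR). With the choroid plexus covariate, the log2 fold change went from 0.37 to 0.27 for Dbi, from 0.70 to 0.37 for Npc2 and from 1.05 to 0.82 for Tspo. None of these was called in that fit (adjusted p = 0.675, 0.716 and 0.580, edgeR). Stard4, which moves cholesterol between membranes, had a log2 fold change of -0.28 (adjusted p = 0.168).

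The defining enzymes of steroid synthesis were scarce. Cyp11a1, which cuts cholesterol to pregnenolone, averaged 1.44 ± 0.340 CPM in void mice and 1.13 ± 0.164 in DHT mice (SD, n = 5 each). For the log2 fold change this gave -0.34 with an interval of -0.75 to 0.059 (adjusted p = 0.388, edgeR). Fdx1, its electron donor, had a log2 fold change of 0.22 (adjusted p = 0.244) and Cyb5a, a helper of the androgen-forming lyase, one of 0.059. Cyp17a1, that lyase, had 0 to 2 counts per library and Cyp19a1, the aromatase, 1 to 11. Neither was tested, and no difference in them was detectable at this depth.

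Among the enzymes that interconvert androgens and estrogens, 4 of 16 found were tested and none was called in either direction by edgeR. Hsd17b7 and Akr1c18 had log2 fold changes of -0.091 and -0.25 (adjusted p = 0.599 and 0.692), and Hsd17b11 one of -0.032. For oxysterol and bile acid enzymes 3 of 6 were tested. Cyp39a1, which hydroxylates the product of Cyp46a1, averaged 1.83 ± 0.220 CPM in void mice and 2.83 ± 0.633 in DHT mice (SD, n = 5 each). Its log2 fold change of 0.64 (interval 0.26 to 1.01) missed the threshold in edgeR at an adjusted p of 0.0524, and DESeq2 called it higher. Ch25h, the interferon-inducible cholesterol hydroxylase, had a log2 fold change of 0.77 with a wide interval (-0.12 to 1.66) on 5 to 34 counts, and Cyp27a1 one of 0.17. The 3 sulfation genes tested, Sult2b1, Sult4a1 and Sult1a1, had log2 fold changes between -0.11 and 0.0098.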

How the data were processed

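RNA-seq of hippocampus from 10 female P301S mice (5 void, 5 DHT) was analysed from raw counts per gene as deposited. The authors trimmed and filtered reads with HTStream and aligned them with STAR 2.7.10b (to mm10 in the methods, mm39 in the submitters' processing notes). Annotation release and strand handling are not given in the sources used here. Of 56884 identifiers, 51948 had a symbol in GENCODE M21, but only 35 shared its version number, so M21 gave names, exon lengths and overlaps, and no gene coordinates. Promoters are from RefSeq GRCm38.p6.

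Groups came from the labels. In R 4.3.3, edgeR 4.0.16 was run with TMM, its expression filter by group (17622 genes), its quasi-likelihood test and adjustment by Benjamini and Hochberg. Standard errors are the log2 fold change over the root of F, and intervals are 95%. DESeq2 1.42.0 was the alternative model. CPM used the TMM factors, and log2 CPM a prior count of 2. Marker contrasts used exact permutation tests over mice, two-sided, whose smallest p is 0.00794. The edgeR fit between the groups was tested on simulated data, and the other tests were not.

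The members, gene lists and marker lists were chosen with earlier results of these data known. Named were all 10 members and, of the other genes, those called, the defining enzymes, up to 3 per list with the smallest p, and the 3 genes most correlated with each member called. Genes named otherwise were chosen after their values were seen. Leaving out DHT mice 5 and 6 together was added after the data were examined, and since these mice were picked on the members' own values nothing is drawn from it. Added likewise were all alternatives for Dbi and Npc2.

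Other alternatives were DESeq2 size factors in edgeR, library size alone, genes with at least 1 count, at least 10 counts in every library, a choroid plexus covariate and leaving out each mouse. Hsd17b8 and Sts were not matched by symbol and are not analysed here.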

Additional observations from a re-analysis of the deposited data

How the results depend on the processing

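No paired analysis was possible because the labels give no pairing or litter. The paper states that littermates were randomized to treatment and that mice shared cages only within their treatment group. Cage and treatment therefore cannot be told apart. The number of members called higher, 2, became 1 (Tspo) with DESeq2 size factors in edgeR, 1 with all genes of at least 1 count, 1 with a fold limit, 0 with the choroid plexus covariate, and 1 to 2 with each mouse left out. The 2 other genes called higher, Dbi and Npc2, became 0 with the covariate and 0 with the fold limit, and 1 to 3 with each mouse left out. Members called lower stayed at 0 in all of these fits. The log2 fold change of Cyp7b1 was -0.012 with the covariate and ranged from -0.048 to 0.13 with a mouse left out. Tspo minus the microglia marker mean was -0.014 with the marker median and 0.31 to 0.46 with a mouse left out. Cyp46a1 minus the neuron marker mean ranged from -0.10 to 0.0059, positive without DHT mouse 1 (0.0050) or DHT mouse 2 (0.0059). Of 170 member fold changes recomputed, 154 kept their direction and side of the threshold, 13 lost the call, 1 gained it and 2 changed sign. The gain was Hsd17b12 without DHT mice 5 and 6, which were the lowest DHT mice for that gene, so it carries no weight. The cause was not tested. Counts under 80 per library limit Star, and Tspo was also low, at 56 to 88 counts in the void libraries. The untested genes had too few to show a difference.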

Other observations

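The summed CPM of the 10 genes stayed within 318 to 344 in void mice and 335 to 351 in DHT mice. Within groups, Srd5a1 correlated at 0.61 with the mean of the disease-associated microglia markers and Tspo at 0.71, over 10 mice, given as a description.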
